A study of Mus musculus with 12 samples.

Results

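Trim71, Prtg, Lin28a, Lin28b, Hmga2, Igf2bp1, Igf2bp2 and Igf2bp3 were followed in the cerebral cortex of mice aged 8 weeks. The 8 genes were taken by symbol from the 34193 rows of the deposited expression table, including those with almost no reads. They were chosen by name with their normalised reads in both genotypes already known, so the differences between genotypes are given as a description, with no p. The conditional knockout (cKO) mice were Nsd1 flx/flx; Nestin-cre +/-, and the controls were Nsd1 flx/flx; Nestin-cre -/-, with 6 libraries each. Both groups thus carry loxP-flanked alleles of Nsd1, whose protein methylates histone H3, and only the cKO carries Cre. Nestin-cre recombines in neural progenitors and their descendants, the neurons, astrocytes and oligodendrocytes. Blood, immune and vessel cells of the same tissue come from other lineages. The RNA came from whole cortex, so fewer cells of a type and less RNA per cell cannot be told apart.

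The 8 genes are best known from early development. LIN28A and LIN28B bind precursors of the let-7 microRNAs and keep them from maturing, and as mature let-7 accumulates in differentiating tissue it represses the Lin28 genes and other fetal transcripts. TRIM71, also called LIN41 after its worm counterpart, is an RNA-binding ubiquitin ligase of the TRIM-NHL family, a let-7 target, and a protein that the mouse embryo needs to close its neural tube. PRTG, protogenin, is a transmembrane receptor of the immunoglobulin superfamily related to DCC and neogenin, and is found in the early neural tube. HMGA2 is a chromatin architectural protein of young neural stem cells, and IGF2BP1, IGF2BP2 and IGF2BP3 are mRNA-binding proteins of fetal tissue, of which IGF2BP2 is the member best known from adult tissue.

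The let-7 family is what ties these transcripts together in the embryo, and the sequences below show the match between microRNA and transcript. RefSeq (GRCm38.p6) lists 11 let-7 family names in the mouse, of which 10 share the seed GAGGUAG at bases 2 to 8 and 1, let-7j, has GAGGUAU. The mature forms are written 5′ to 3′ with the seed in capitals.
mmu-let-7a-5p: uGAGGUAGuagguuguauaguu
mmu-let-7g-5p: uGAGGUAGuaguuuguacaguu
mmu-miR-98-5p: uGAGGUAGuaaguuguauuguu
mmu-let-7j: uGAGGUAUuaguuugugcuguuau

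The DNA letters that pair with the shared seed are CTACCTC, and this run of 7 bases was searched on the sense strand of 1 3′ UTR per gene (GENCODE, GRCm38). Each of the 8 genes holds at least 1 match, 6 hold 2 or more, and the total is 22, of which 14 are followed by A. Among 20952 mouse 3′ UTRs of any length, 8.85% hold any match. That share is not matched for length, and shares among 3′ UTRs at least as long are given below for each gene. The 8 genes were also chosen by name and are tied to let-7 in the embryo, so nothing is read from the contrast with 8.85%. The sites of Trim71 and Prtg, the genes that differed most between genotypes, are shown with their GRCm38 positions, the seed match in capitals.
Trim71 chr9:114512472-114512494, minus strand: aacattgcctaagtcCTACCTCa
Trim71 chr9:114512376-114512398, minus strand: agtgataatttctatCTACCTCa
Trim71 chr9:114509047-114509069, minus strand: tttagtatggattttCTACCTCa
Trim71 chr9:114509021-114509043, minus strand: ttggcaaaaagttgtCTACCTCa
Prtg chr9:72912558-72912580, plus strand: ccctctgctgaatagCTACCTCa
Prtg chr9:72913988-72914010, plus strand: gcgctcctgtttataCTACCTCc

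Trim71 holds 4 matches in a 3′ UTR of 5512 bases, a number reached by 0.0573% of all 3′ UTRs and by 0.688% of the 581 that are at least as long. All 4 are followed by A, and they lie in close pairs. Prtg holds 2 matches in 4989 bases, which 9.71% of the 803 3′ UTRs of at least that length reach. Lin28b and Hmga2 also hold 4 each, a number reached by 0.549% and 0.291% of 3′ UTRs at least as long as theirs. In each, only the match nearest the stop codon is followed by A. For comparison with Trim71 that match is shown, again with the seed match in capitals.
Lin28b chr10:45381022-45381044, minus strand: acccgggcgggaagtCTACCTCa
Hmga2 chr10:120364224-120364246, minus strand: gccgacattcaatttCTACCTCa

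Igf2bp1 holds 4 matches and Lin28a holds 2, numbers reached by 0.806% and 4.62% of 3′ UTRs at least as long as theirs. Igf2bp2 and Igf2bp3 hold 1 each, which 18.99% and 20.56% of 3′ UTRs at least as long as theirs reach. A seed match is a run of letters and not a measured site, and let-7 itself was not measured: the deposited values include 9 let-7 precursor genes, of which 7 had no read, and the other 2, Mirlet7c-2 and Mirlet7g, had 1 read each, both in cKO libraries.

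**Figure D1:**
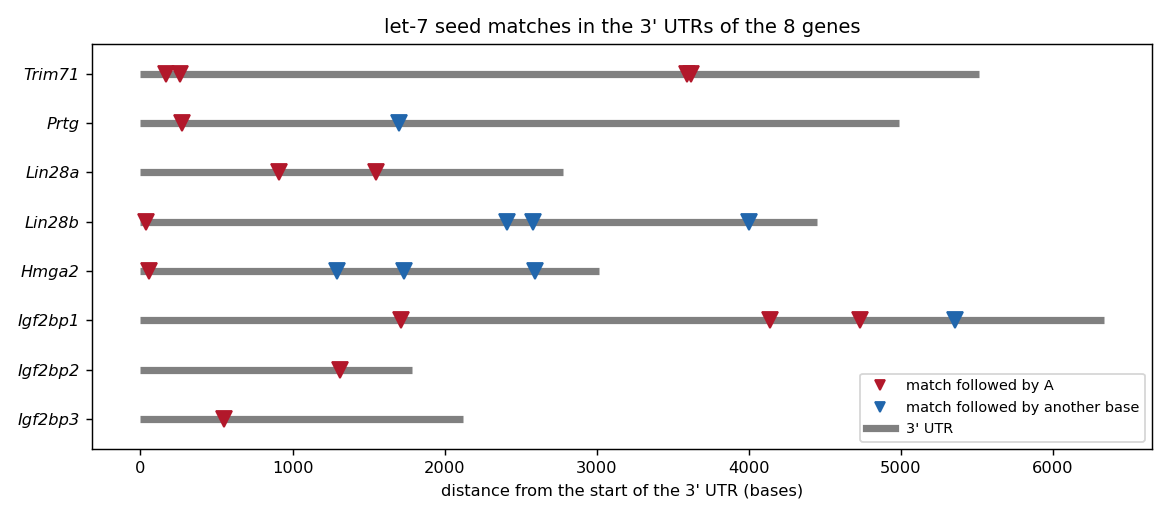
Position of each let-7 seed match (triangles) along the 3′ UTR (grey bars, in bases from its start) of the 8 genes, in red where the next base is A and in blue where it is another base. Trim71, Lin28b, Hmga2 and Igf2bp1 have 4 matches each, and those of Trim71 lie in close pairs.

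The libraries held 14.6 to 27.0 M reads assigned to genes in the cKO and 10.5 to 21.1 M in the controls, so 3 reads correspond to 1.98 normalised reads in 1 library and up to 5.64 in another. Nsd1, the targeted gene, stood at 3251 ± 299 normalised reads in the cKO and 4235 ± 850 in the controls (SD, n = 6 each), a log2 difference of -0.36 (SE 0.12, limma adjusted p = 0.383). Which stretch of the gene these reads come from is not given in the sources used, so they do not measure recombination. In each genotype, libraries 1 to 3 hold Y-linked reads above a summed value of 100 and libraries 4 to 6, called without Y-linked reads below, do not (cKO library 6 holds a sum of 3.09). This split goes against the labelled sex of the same number in 8 of 12 libraries. Libraries are therefore described by these reads and by genotype only. Mitochondrial ribosomal RNA made up 14.2% and 11.5% of the reads of control libraries 4 and 5, and 1.46% to 6.00% of those of the other 10. All 7 excitatory neuron markers of the cortex passed the filter described next, and their summed level was 35065 to 40793 normalised reads in cKO libraries and 30946 to 45275 in control libraries.

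Trim71 and Prtg were lower in cKO cortex, and the Lin28 genes, Hmga2 and the Igf2bp genes either had overlapping levels or were nearly absent from both groups. Only genes that averaged 10 normalised reads or more across all 12 libraries were fitted, namely 14397 genes in all and 4 of the 8 genes described here (Trim71, Prtg, Lin28b and Igf2bp2). Trim71 passed this filter only through its level in the controls. Of these 4, Trim71 and Prtg, 2 of the 8, were among the genes called lower in the cKO at a limma adjusted p under 0.05, where 0.0695% of all fitted genes were. Since the genes were chosen with this difference known, nothing is read from that count. Genes called in either direction made up 0.834% of those fitted.

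Trim71 ran from 1.51 through a median of 3.85 to 7.12 normalised reads in the 6 cKO libraries, and from 17.2 through 20.6 to 30.1 in the 6 control libraries. Every cKO library lay below every control library, with a wide gap between the groups. The means were 4.02 ± 2.01 in the cKO and 21.8 ± 4.99 in the controls (SD, n = 6 each), so the cKO held 18.4% of the control level. In reads, this is 2 to 7 per cKO library and 14 to 28 per control library, or 27 in all in the cKO against 117 in the controls.

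The deepest cKO library, with 27.0 M reads, held 7 Trim71 reads, and the shallowest control library, with 10.5 M, held 16. Summed over the group, Trim71 had 0.224 reads per M reads in the cKO and 1.19 in the controls. In 3 cKO libraries Trim71 had at most 3 reads, which is the level at which presence itself is uncertain.

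**Figure D2:**
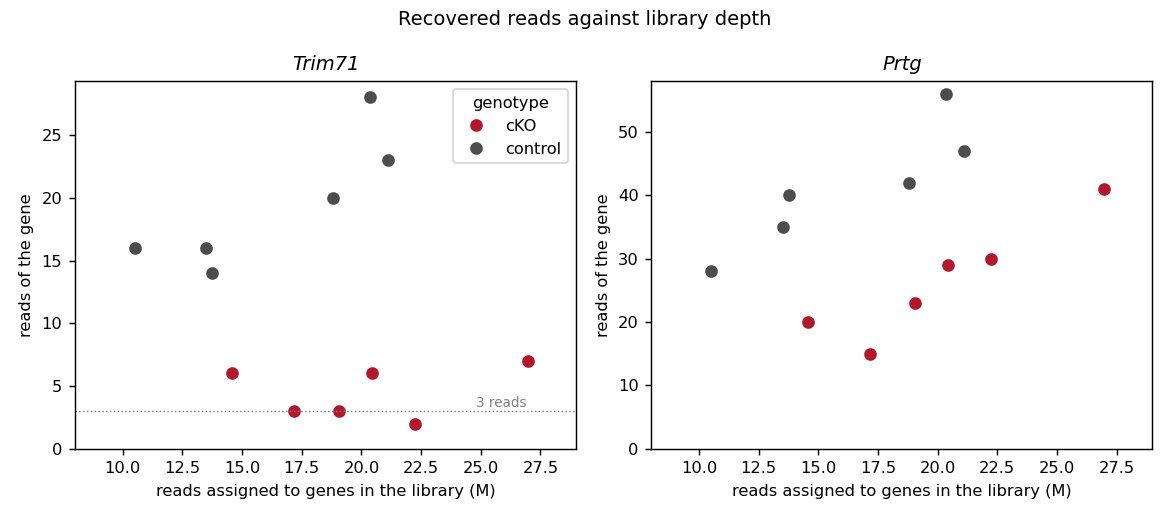
Reads of Trim71 (left) and Prtg (right) in each library against the reads assigned to genes in that library (M), cKO in red and control in grey, with the level of 3 reads dotted for Trim71. The 6 cKO libraries stay at 2 to 7 Trim71 reads at every depth, and the 6 control libraries at 14 to 28.

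On the scale of log2(normalised reads + 1), Trim71 differed by -2.26 (SE 0.29) between cKO and control. This scale understates changes of weakly expressed genes, and the authors' deposited table gives -2.47 with a standard error of 0.39. Among the 10 genes called lower in the cKO, Trim71 had the largest difference and Prtg the third largest. Between them stood Ighg2c, an immunoglobulin gene, at -1.49 (SE 0.18). Being lower in every cKO library than in any control library was found for 0.194% of fitted genes. Nothing is read from these ranks either, as the choice of genes used them.

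Prtg, the receptor, ran from 15.4 through 23.2 to 27.0 normalised reads in cKO libraries, and from 36.1 through 49.1 to 52.6 in control libraries. The groups did not overlap, and the gap between the highest cKO and the lowest control library was narrower than for Trim71. The means of 22.3 ± 4.05 in the cKO and 46.0 ± 6.80 in the controls (SD, n = 6 each) put the cKO at 48.6% of the control level, a log2 difference of -1.02 (SE 0.17). The authors' deposited table gives -1.01 with a standard error of 0.21. Prtg rested on more reads than Trim71, with 15 to 41 per cKO library and 28 to 56 per control library. Without control libraries 4 and 5, those rich in mitochondrial ribosomal RNA, the log2 difference of Prtg was -0.94 and the gene was no longer called, with 4 controls left. That of Trim71 was -2.22.

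**Figure D3:**
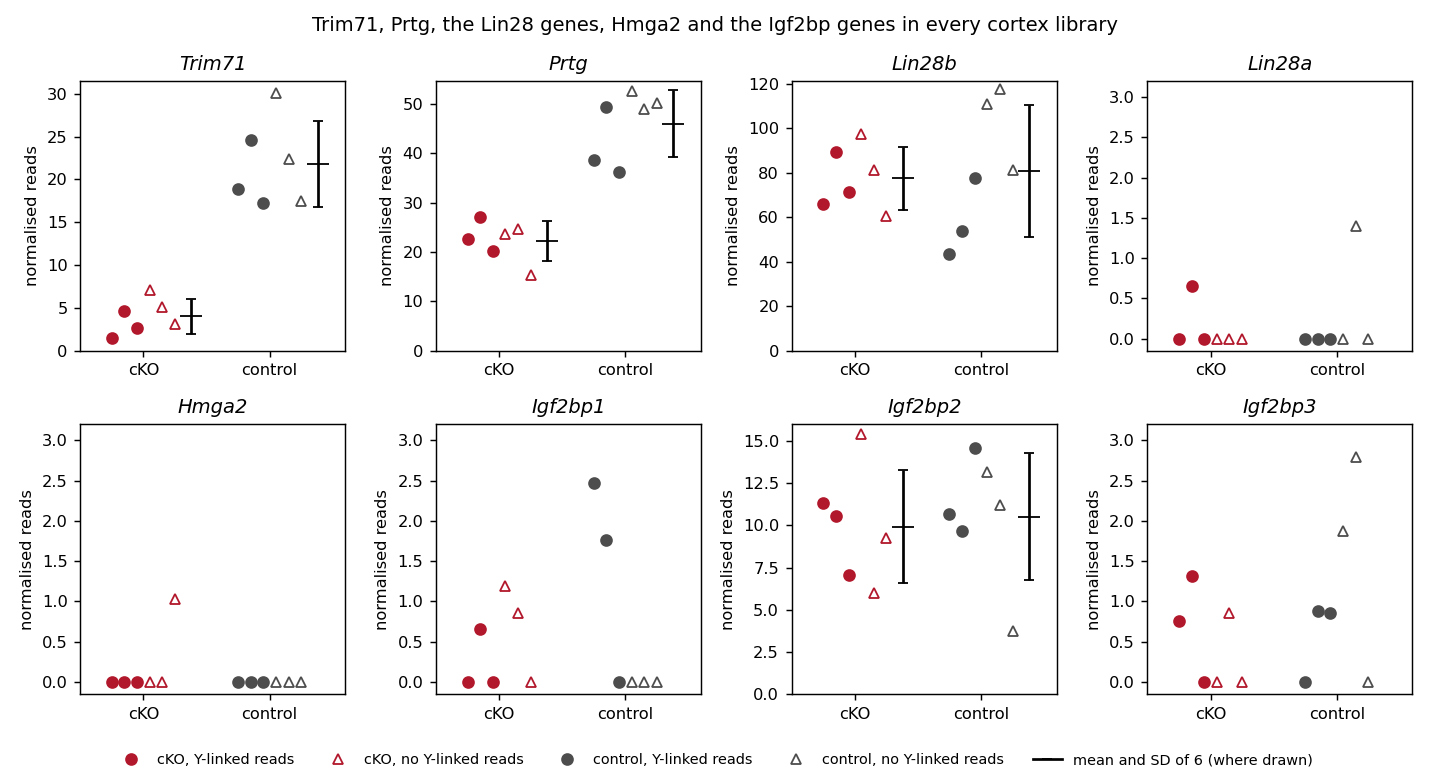
Normalised reads of the 8 genes in every library, cKO left and control right, with filled circles for libraries with Y-linked reads and open triangles for those without; black bars give mean and SD of 6 for the 4 fitted genes. Trim71 and Prtg separate the genotypes, and Lin28b and Igf2bp2 overlap. The lower panels of Hmga2, Igf2bp1 and Igf2bp3 and that of Lin28a hold at most 3 reads in any library.

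Trim71 and Prtg were weak transcripts of the cortex in both genotypes. Per kilobase of transcript, a scale that takes reads to be counted over exons, which the sources used do not state, Trim71 had a level of 0.430 ± 0.215 normalised reads in the cKO and 2.33 ± 0.535 in the controls (SD, n = 6 each). Only 0.0619% of the 12921 fitted genes with a known length had a lower mean level per kilobase over the 12 libraries. Prtg had 2.44 ± 0.443 per kilobase in the cKO and 5.02 ± 0.743 in the controls (SD, n = 6 each), and 1.49% of genes were lower. The median gene stood at 128 normalised reads per kilobase.

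Lin28b, a let-7 antagonist, was the most abundant of the 8 genes per kilobase, at 14.4 ± 2.61 normalised reads in the cKO and 14.9 ± 5.48 in the controls (SD, n = 6 each). Its normalised reads ran from 60.7 through a median of 76.1 to 97.3 in cKO libraries, and from 43.6 through 79.4 to 117 in control libraries. The control range enclosed the cKO range, and the log2 difference was 0.01 (SE 0.19). Without control libraries 4 and 5, which held the 2 highest values, it was 0.24.

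The libraries of each genotype fall into a set with Y-linked reads and a set without. In libraries with Y-linked reads, Lin28b ran from 65.9 to 89.1 in the cKO and from 43.6 to 77.4 in the controls, a log2 difference of 0.39 (SE 0.24). In those without, it ran from 60.7 to 97.3 in the cKO and from 81.4 to 117 in the controls, a difference of -0.38 (SE 0.24). The test of the difference between the sets, which the choice of genes did not use, gave a log2 value of 0.77 (SE 0.34, n = 3 per genotype and set, limma unadjusted p = 0.0361, adjusted p = 0.562), and so did not pass over all genes. The 3 control libraries without Y-linked reads include libraries 4 and 5, and without these the difference between the sets was 0.45. An unadjusted p under 0.05 for this test was found for 8.77% of all fitted genes, and 0 of 14397 passed after adjustment in limma and in edgeR, against 3 (0.0208%) in DESeq2.

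For the other 3 fitted genes the same test did not pass either. The genotype difference of Trim71 was -2.50 (SE 0.41) in libraries with Y-linked reads and -2.02 (SE 0.41) in those without, and the difference between the sets was -0.48 (SE 0.57, limma adjusted p = 0.784). This rests on 2 to 7 Trim71 reads per cKO library, too few to show whether the sets differ. For Prtg the values were -0.80 (SE 0.24) and -1.24 (SE 0.24), with a difference of 0.44 (SE 0.33, limma adjusted p = 0.650). Every cKO library lay below every control library for both genes, so each set must show them lower, and nothing is read from this. For Igf2bp2 the difference between the sets was -0.43 (SE 0.64, limma adjusted p = 0.824).

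Libraries with Y-linked reads were also compared with those without, across both genotypes. Lin28b differed by -0.45 (SE 0.19, limma unadjusted p = 0.0307, adjusted p = 0.395) and Trim71 by -0.42 (SE 0.29, limma adjusted p = 0.552). Prtg differed by -0.08 (SE 0.17, limma adjusted p = 0.882) and Igf2bp2 by 0.20 (SE 0.32, limma adjusted p = 0.818). None of the 4 passed, where 0.0764% of all fitted genes did.

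Lin28a, the other let-7 antagonist, had 2 reads in all 12 libraries together, 1 in cKO library 2 and 1 in control library 5. Hmga2 had 1 read, in cKO library 6, and none in the 98.0 M control reads, a depth at which 0 reads allow up to 0.0306 reads per M reads, for counting error only. Neither gene was detectable beyond single reads in either genotype, and no fold change is given.

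Of the mRNA-binding IGF2BP proteins, Igf2bp2 was the one with a level that could be compared. It ran from 5.97 through a median of 9.91 to 15.4 normalised reads in cKO libraries, and from 3.76 through 10.9 to 14.6 in control libraries. The groups overlapped over nearly their whole range, and the log2 difference was -0.04 (SE 0.32). With a mean of 10.2 over the 12 libraries Igf2bp2 stood just above the filter, and 0.264% of fitted genes had a mean no higher. Igf2bp1 had 8 reads in all, 3 in cKO libraries and 5 in control libraries, and Igf2bp3 had 9, with 4 in cKO and 5 in control libraries. No library held more than 3 reads of either gene.

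Per kilobase, the control levels thus ran from Lin28b through Prtg, Igf2bp2 and Trim71 to the 4 nearly absent genes. In controls, Prtg at 5.02 ± 0.743 stood above Igf2bp2 at 2.70 ± 0.964, and Igf2bp2 and Trim71 at 2.33 ± 0.535 lay within a SD of each other. In the cKO, Prtg at 2.44 ± 0.443 and Igf2bp2 at 2.55 ± 0.867 lay within a SD of each other, and Trim71 at 0.430 ± 0.215 was lower.

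The genes around Trim71 and the Lin28 proteins were examined as 8 lists, chosen for the pathway and with earlier results of these data known. They hold 134 different genes that could be fitted, and 0 of them was called in either direction by limma, where 0.834% of all fitted genes were. An unadjusted p under 0.05 was found for 9 of the 134, and for 9.73% of all fitted genes. Their median log2 difference was 0.07, beside -0.00069 for all fitted genes. DESeq2 on the recovered reads called 1 of them, Ccnd1.

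Of 21 genes of let-7 and microRNA processing, 0 were called, and 19 were above 0, with a median of 0.08. Tut4 and Tut7, the uridylyl transferases that LIN28A recruits to let-7 precursors, stood at 570 ± 58.3 and 1231 ± 131 normalised reads in the cKO, and at 562 ± 85.1 and 1158 ± 102 in the controls (SD, n = 6 each). Dicer1, which cuts precursors to mature microRNAs, stood at 832 ± 117 in the cKO and 791 ± 124 in the controls. The most reads of the list fell to Ddx5, an RNA helicase of the nuclear processing step, at 8889 ± 1398 in the cKO and 7634 ± 908 in the controls, with the highest log2 difference of the list at 0.22 (limma adjusted p = 0.520). The lowest was that of Tarbp2, a partner of Dicer, at -0.07. These genes were plainly expressed in both genotypes.

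Of 38 known let-7 targets other than the 8 genes, 0 were called, with 24 above 0, 14 below and a median of 0.07. Igf2, the growth factor whose mRNA the IGF2BP proteins are named for, had the highest difference of the list at 0.37 (SE 0.11, limma adjusted p = 0.296), with 1215 ± 93.0 normalised reads in the cKO and 954 ± 187 in the controls. Ccnd2, a cyclin of the G1 phase, stood at 2520 ± 257 in the cKO and 2057 ± 244 in the controls, a log2 difference of 0.30 (limma adjusted p = 0.245). Thbs1, a matrix glycoprotein, had the lowest difference at -0.35. Hmga1, the paralogue of Hmga2, stood at 248 ± 45.5 in the cKO and 271 ± 24.5 in the controls. Unlike Hmga2 it was plainly present, without a called difference (limma adjusted p = 0.657).

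Of 9 TRIM-NHL and related TRIM genes 0 were called, with 6 above 0, 3 below and a median of 0.06. Trim32, an NHL-repeat ubiquitin ligase like TRIM71, stood at 3498 ± 362 normalised reads in the cKO and 3244 ± 613 in the controls, with the highest difference of the list at 0.12. Trim67, a relative expressed in neurons, had the lowest at -0.26 (limma adjusted p = 0.598), with 89.0 ± 28.0 in the cKO and 104 ± 17.3 in the controls.

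Of 12 fitted genes that were reported as mRNA targets or partners of TRIM71 in embryonic or stem cells, 0 were called, with 9 above 0, 3 below and a median of 0.11. Cdkn1a, a cell cycle inhibitor whose mRNA TRIM71 represses in mouse embryonic stem cells, had the highest difference at 0.41 (SE 0.16, limma adjusted p = 0.457), with 416 ± 82.4 normalised reads in the cKO and 330 ± 134 in the controls. Egr1, an immediate early gene, stood at 6797 ± 1141 in the cKO and 5327 ± 1187 in the controls, a log2 difference of 0.37 (limma adjusted p = 0.459). Rbl1, a retinoblastoma relative, had the lowest at -0.34. Hoxa5 had no read in any library.

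Of 13 genes listed around protogenin, namely DCC, neogenin, Igdcc3, Igdcc4, UNC5 receptors, netrins, Rgma, Rgmb and Dnajb11, 0 were called. Of these, 8 were above 0 and 5 below, with a median of 0.02. The highest was Dnajb11 at 0.24 and the lowest Ntn4, a netrin, at -0.24. Neo1, the neogenin receptor, stood at 2094 ± 187 normalised reads in the cKO and 1932 ± 264 in the controls. Igdcc4, one of the genes most similar to Prtg, stood at 993 ± 78.5 in the cKO and 1083 ± 127 in the controls, and Igdcc3, another, at 21.4 ± 4.67 in the cKO and 22.0 ± 7.91 in the controls. The ranges of Igdcc3 overlapped, and its log2 difference was 0.02 (SE 0.23, limma adjusted p = 0.981).

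Genes of neuroepithelium and neural progenitors, the cells in which Trim71 and Prtg are known, gave 9 above 0 and 10 below among 19, with a median of -0.05 and 0 called. Of the 22 genes listed, Eomes and Neurog2 fell under the filter and Sox1 was not found by symbol among the deposited values. Neurog2, a proneural transcription factor, ran from 0.660 through a median of 2.75 to 8.30 normalised reads in cKO libraries and from 7.51 through 12.7 to 19.7 in control libraries, with a slight overlap of the groups. With the filter lowered to a mean of 1 it was called lower, with a log2 difference of -1.85 (SE 0.41, limma adjusted p = 0.0397), and likewise with no filter (limma adjusted p = 0.0491). Genes called lower numbered 12 of 16974 at a mean of 1 and 11 of 19997 with no filter. Neurog2 was the only list gene under the filter called at either setting, and as with Trim71 these are few reads, 21 in the cKO and 71 in the controls. Among the fitted genes, Hes5, a Notch target of neural progenitors, had the lowest difference, -0.53 (SE 0.15, limma adjusted p = 0.226), with 219 ± 42.0 normalised reads in the cKO and 317 ± 62.9 in the controls. Nes, the intermediate filament gene of the same cells, had the highest at 0.23 (limma adjusted p = 0.612).

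Of 16 genes listed as partners of the IGF2BP proteins in messenger ribonucleoproteins, or as bound mRNAs (Actb and Cd44), 0 were called. There were 11 above 0 and 5 below, with a median of 0.10. They ran from 0.23 for Hnrnpu, a nuclear RNA-binding protein, to -0.15 for Stau2, a neuronal transport protein. Of 20 other fetal-to-adult switch and pluripotency genes 9 passed the filter and 0 were called, with 5 above 0, 4 below and a median of 0.03. Plag1, a fetal zinc finger factor, had the highest difference of these at 0.45 (SE 0.18, limma adjusted p = 0.476), with 54.1 ± 9.46 in the cKO and 39.6 ± 9.31 in the controls. Dppa4 and Zfp42, pluripotency genes, had no read in any library.

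**Figure D4:**
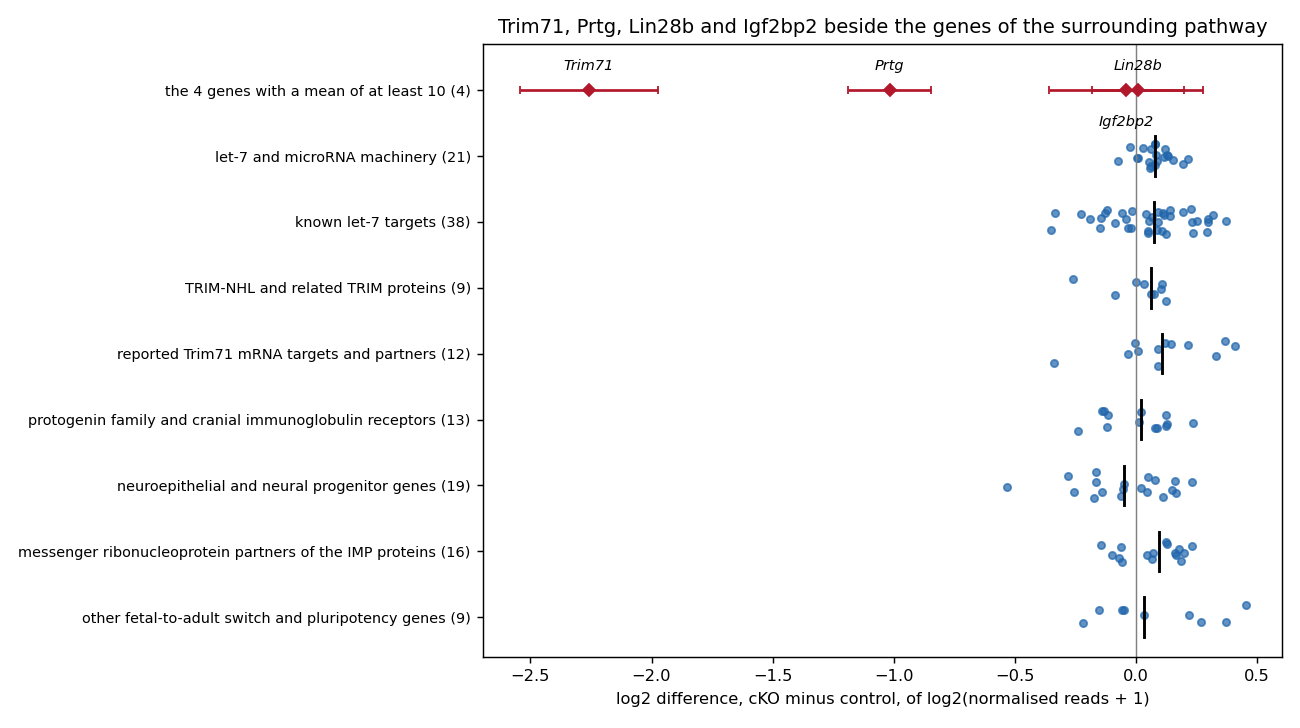
Difference between cKO and control on the scale of log2(normalised reads + 1) for Trim71, Prtg, Lin28b and Igf2bp2 (red diamonds with SE) and for each fitted gene of the 8 lists (blue points, with the number of genes in brackets and the median as a black line). The points of the lists lie between -0.53 and 0.45, and Trim71 and Prtg lie at -2.26 and -1.02.

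Trim71 and Prtg are both on chromosome 9, with 41.8 Mb between their promoters (GRCm38.p6). The 3 nearest fitted genes on either side of each of the 8 genes were examined. Of these 48 neighbours 1 was called, where 0.834% of all fitted genes were. None of the 6 neighbours of Trim71 was called (limma, smallest adjusted p = 0.482). Their log2 differences ran from -0.28 for Susd5 to 0.23 for Dync1li1, with a median of 0.08. None of the 6 neighbours of Prtg was called (limma, smallest adjusted p = 0.527), and they ran from -0.22 for Gm5918 to 0.18 for Nedd4, a ubiquitin ligase gene, with a median of -0.03. All 12 neighbours lay closer to 0 than Trim71 or Prtg, which were chosen with their differences known, so nothing is read from this.

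**Figure D5:**
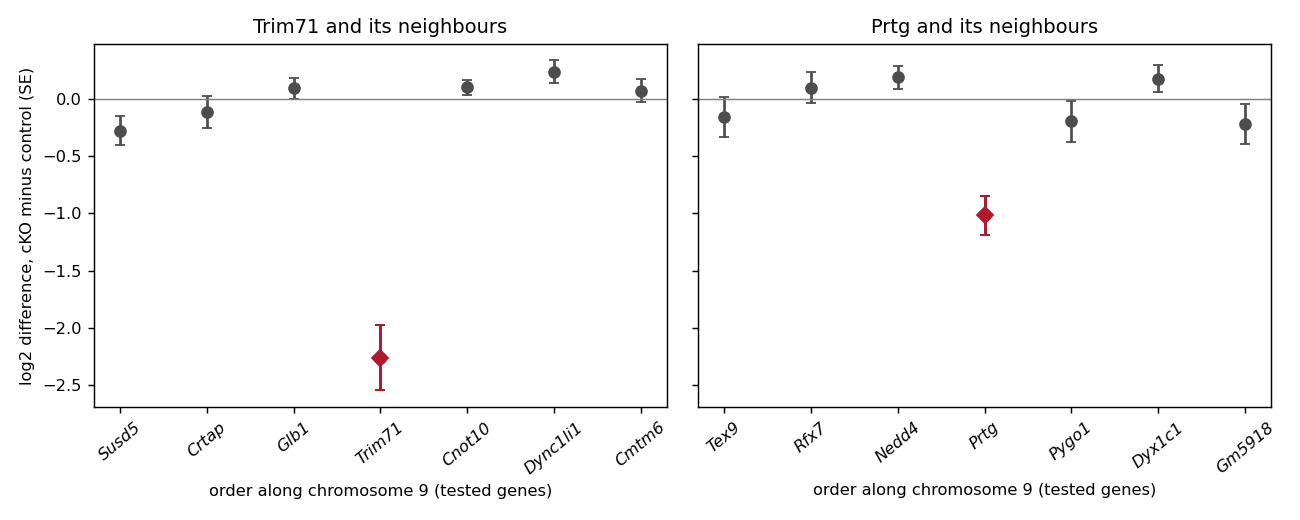
Difference between cKO and control (log2, with SE) of Trim71 (left, red) and Prtg (right, red) and of the 3 nearest fitted genes on either side (grey), in their order on chromosome 9. The neighbours lie between -0.28 and 0.23, against -2.26 for Trim71 and -1.02 for Prtg.

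The neighbour that changed was Gpnmb, beside Igf2bp3 on chromosome 6. Gpnmb, a transmembrane glycoprotein of microglia and other phagocytes, ran from 63.8 through a median of 67.4 to 71.2 normalised reads in cKO libraries, and from 19.6 through 31.9 to 37.0 in control libraries. The groups did not overlap and the gene was higher in the cKO, with a log2 difference of 1.16 (SE 0.14, limma adjusted p = 0.000317). Of all fitted genes, 0.764% were called higher and 0.813% lay higher in every cKO library than in any control library. The range of its adjusted p over 24 other settings was 2.49e-08 to 0.0033. Igf2bp3 itself held at most 2 reads in any library of either genotype. Among the neighbours of Igf2bp1, 5 of the 6 lay below 0 with a median of -0.25 and 0 called (limma, smallest adjusted p = 0.115).

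The promoters of Trim71 and Prtg, the genes with the lowest differences of the 8, are shown next. RefSeq gives 300 bases, from 250 before to 50 after the start, on GRCm38.p6, and CG, which reads the same on both strands, is in capitals.
Trim71 chr9:114564320-114564619, minus strand: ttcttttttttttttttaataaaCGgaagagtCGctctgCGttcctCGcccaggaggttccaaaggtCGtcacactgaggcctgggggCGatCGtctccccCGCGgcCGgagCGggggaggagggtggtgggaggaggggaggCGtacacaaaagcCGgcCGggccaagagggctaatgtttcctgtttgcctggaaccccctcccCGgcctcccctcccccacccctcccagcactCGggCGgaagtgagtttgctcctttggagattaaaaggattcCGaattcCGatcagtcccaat
Prtg chr9:72807024-72807323, plus strand: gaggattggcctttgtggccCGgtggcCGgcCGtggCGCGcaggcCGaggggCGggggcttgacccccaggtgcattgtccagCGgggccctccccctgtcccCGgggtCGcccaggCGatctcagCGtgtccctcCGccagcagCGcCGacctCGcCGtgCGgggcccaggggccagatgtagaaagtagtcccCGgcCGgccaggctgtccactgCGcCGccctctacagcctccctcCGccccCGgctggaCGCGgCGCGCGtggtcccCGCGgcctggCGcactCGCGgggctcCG

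The Trim71 window holds 19 CG, a number reached by 28.1% of 32851 mouse promoter windows, and the Prtg window holds 35, reached by 6.95%, beside a median of 7. Igf2bp2, whose groups overlapped, holds 47, and Igf2bp3, with almost no reads, 25. Hmga2 holds 12, Lin28a 10 and Lin28b 8, and no window is given for Igf2bp1. DNA methylation was not measured here.

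The fitted genes most like Trim71 across the 12 libraries were named by Pearson's r of log2(normalised reads + 1), as a description. They were Ighg2c, an immunoglobulin heavy chain gene (r = 0.94), Prtg (0.92), Rimklb (0.84), Pcgf1, a Polycomb group ring finger gene (0.84), and Fzd9, a Wnt receptor (0.83). The genes most like Prtg were Trim71 (0.92), Ighg2c (0.91), Lrig1 (0.90), Fzd9 (0.87) and Tax1bp3 (0.87). Genotype separates Trim71 and Prtg and so enters these values.

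After genotype and the Y-linked term had been taken out, Prtg was the gene ranked 2411 in likeness to Trim71 (r = 0.44). The genes most like Trim71 were then Slc30a1, a zinc exporter (0.94), C030046E11Rik (0.94), Cep250 (0.93), Nvl (0.91) and Pard6b, a cell polarity gene (0.91). Those most like Prtg were Ly75 (0.96), Gm340 (0.89), A430018G15Rik (0.89), Bend4 (0.88) and Tex15 (0.88).

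Lin28b went with other genes on both measures, led by Unc13c (0.91) on the values and by Rp2h (0.92) once genotype and the Y-linked term were out. Igf2bp2 went with Plcb2 (0.91) on the values, and with Fpgt (0.94) and Plcb2 (0.94) once they were out. Each r covers the same 12 libraries, which share their depth and dissection across genes, and no test is attached to it.

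Ighg2c, itself called lower in the cKO, stood next to Trim71 in this ranking, so the markers of blood and B cells are given here. Of 5 such markers 4 were fitted, all 4 were below 0, and 1, Ighm, the immunoglobulin mu heavy chain, was called lower in the cKO, beside 0.0695% of all fitted genes. The summed level ran from 903 to 1657 normalised reads in cKO libraries and from 1130 to 3495 in control libraries, so the sums overlapped. Taken singly, 1 of the 4 was lower in every cKO library than in any control library, beside 0.194% of all fitted genes. A limma unadjusted p under 0.05 was found for 3 of the 4, beside 9.73% of all fitted genes. Of 5 choroid plexus and ependyma markers 4 were fitted, all below 0 and 0 called, with a sum of 155 to 235 in cKO libraries and 184 to 276 in control libraries. All 5 astrocyte markers were above 0 and 1, the water channel Aqp4, was called higher (beside 0.764% of all fitted genes), with a sum of 21126 to 26387 in cKO libraries and 17361 to 24564 in control libraries. The part of these cells in the values of Trim71 and Prtg was not tested. Of 5 hindbrain markers 4 were under the filter. The remaining marker lists went both ways, with 0 called. Microglia markers had 3 above 0 and 1 below, and oligodendrocyte markers 2 above and 3 below. Endothelial and mural markers had 2 above and 4 below, and neuroblast and dividing progenitor markers 3 above and 2 below.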

How the data were processed

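Total RNA (250 ng) was depleted of ribosomal RNA and sequenced as directional libraries, per the labels' protocols. The labels number biological replicates and name no animals, and p-values therefore cover only how far these samples spread, which may be technical. STAR, Bowtie, Trim Galore, bedtools and the build mm9 are named in the submitters' processing notes, and a strand setting is not given in the sources used. The deposited values are a signal, counts normalised by the authors with DESeq2, per the file headers. The authors also deposited a log2 fold change and its standard error, a score (Wald statistic) and a p-value for each gene. Dividing each library by its smallest step gave whole reads for 100% of values, within 0.01 reads. Columns were assigned to genotype only, because Y-linked reads (summed value above 100) disagree with the labelled sex of the same number in 8 of 12 columns.

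Values were fitted as log2(value + 1) with limma (trend, two-sided, Benjamini-Hochberg), with genotype and a term for Y-linked reads, for genes averaging 10 or more. Alternatives were pseudocounts of 0.5 and 5, means of 1 and 50 or no filter, TMM and quantile scaling, array weights, the recovered reads in edgeR or DESeq2, no Y-linked term, a replicate block, and libraries left out. The fit was tested on simulated data. Replicate pairs differed beyond counting error (chi-square over degrees of freedom from 7.03 to 169). The genes and lists were chosen with earlier results of these data known. Named were the 8 genes, called list and neighbour genes, the 3 most abundant and the 2 extreme genes of each list, and the 5 genes most like each fitted gene on each measure, of which not all are printed. A few list genes outside this rule (Tut4, Tut7, Dicer1, Hmga1, Igdcc3, Igdcc4, Ccnd1, Neurog2) were added for their role or after their values were seen. Seed matches and promoters come from GENCODE and RefSeq on GRCm38, and coordinates of the files' build are not printed. Versions were R 4.3.3, limma 3.58.1, edgeR 4.0.16 and DESeq2 1.42.0.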

Additional observations from a re-analysis of the deposited data

Results flagged for a closer look

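In 17 groups of 6 libraries tested, 3 had 1 library standing far from the other 5, where measured values would give about 1 such group in 20 by chance. Each was a single read in a group otherwise at 0, which always stands apart in this way, so that rate does not apply here. Hmga2 stood at 1.03 normalised reads in cKO library 6. Lin28a stood at 0.660 in cKO library 2 and at 1.40 in control library 5.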

How the results depend on the processing

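The differences of Trim71, Prtg, Lin28b and Igf2bp2 were recomputed under 25 other settings, and 96 of 97 values stayed within 1 SD of the reported ones. The exception was Trim71 with a pseudocount of 5, at -1.58. This SD is that between libraries, 0.25 for Prtg to 0.54 for Igf2bp2 in log2, so the criterion is loose. Part of the 97 values could not move. The filter does not enter the differences, and with balanced groups neither dropping the Y-linked term nor the replicate block changes them. With 1 library left out they ran from -2.39 to -2.11 for Trim71, -1.09 to -0.90 for Prtg, -0.12 to 0.13 for Lin28b and -0.28 to 0.07 for Igf2bp2. With a filter at a mean of 50, Trim71, Prtg and Igf2bp2 were not fitted, and 58 genes were called, 53 higher and 5 lower, with 0 called neighbours, as fewer genes were fitted. edgeR on the recovered reads called 119 genes and DESeq2 169, 26 of them lower. Genes called lower numbered 20 with array weights and 6 without control libraries 4 and 5. With 1 library left out, 97 to 123 genes were called, 89 to 114 higher and 8 to 13 lower. DESeq2 called 3 genes for the difference between sets, 60 for the Y-linked set (57 with array weights), 1 list gene (Ccnd1; 1, Neurog2, with a filter at a mean of 1 or none) and 2 neighbours (Phospho1 and Gpnmb). With 1 library left out these counts ran from 0 to 7 (7 without control library 6), from 9 to 19 (19 without cKO library 3), from 0 to 1 (Acvr1c, without control library 2) and stayed at 1. The cause was not tested. The list medians moved most for progenitor genes, to 0.06 without control library 4, and for fetal-switch genes, to 0.13 without cKO library 6.

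Same-numbered columns of the genotypes correlated at 0.0911 to 0.497, over 0.1 in 4 of 6 numbers, and 4 of 6 correlated best with their own number. With the Y-linked term taken out they ran from -0.267 to 0.319, over 0.1 in 3 and below 0 in 3. The numbers were not taken as pairs. A replicate block in place of the Y-linked term called 118 genes against 120 without it. The differences of Trim71 and Prtg were -2.26 and -1.02 with the block as without. With each number once per genotype the block cannot change them, so this says nothing about pairing. Only the SE can change, from 0.285 to 0.263 for Trim71 and from 0.172 to 0.170 for Prtg.

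Low read numbers limit Trim71 in cKO libraries. Lin28a, Hmga2, Igf2bp1 and Igf2bp3 had at most 3 reads in any library, too few to compare.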
